A study of Mus musculus with 12 samples.

Results

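The genes of the cytosolic ribosomal proteins were followed in primary mouse embryonic fibroblasts cultured for 6 h in hypoxia (0.1% O2) or normoxia (21% O2). Members were the genes whose only listed symbol on the Affymetrix Mouse430_2 array was Rpl or Rps with a number and an optional a, x or l, or Rplp0, Rplp1, Rplp2 or Rpsa, without Rps6k kinases and symbols marked -ps as pseudogenes. Such symbols were found on 100 probe sets of 46 genes, and 44 genes had one whose signal averaged 100 or more over the 12 arrays. These 44 are the members, 23 of the large and 21 of the small subunit, among 10059 genes with a tested probe set. Where a gene had several probe sets, the brightest stands for it. RefSeq lists 1 member, Rps4l, as a transcribed pseudogene. The other two, Rpl3l and Rps16, had means of 20.7 and 13.8 and were not tested. A further 28 ribosomal protein genes appeared only on probe sets listed under several symbols, which are counted below but not named.

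The triCH1 lines lacked the CH1 domain in 3 of the 4 alleles of Crebbp and Ep300, the genes of the coactivators CBP and p300, and their last allele was floxed: Crebbp in line triCH1flox1, Ep300 in lines triCH1flox2_1 and triCH1flox2_2. The control lines carried 1 floxed allele beside wild-type alleles, Crebbp in flox1 and Ep300 in flox2_1 and flox2_2. All 6 lines came from e14.5 embryos and received an adenovirus expressing Cre at passage 3, then expanded at least 100-fold, so that the controls had been exposed to Cre too. Medium equilibrated to the same oxygen level replaced the old one when treatment began. Each line gave 1 array in hypoxia and 1 in normoxia, 3 arrays in each of 4 groups, and a line of either type may differ from another in more than the alleles named.

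Ribosomal proteins assemble with ribosomal RNA into the small and the large subunit, in roughly equal numbers. In mammals their messages begin with an uninterrupted run of pyrimidines at the 5′ end, the TOP motif, through which mTOR signalling sets how well they are translated. Hypoxia is known to restrain mTOR, and that control acts on translation rather than on the amount of message. Arrays measure the message only.

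Bases around the annotated start are shown for the 6 members with the longest run of C and T within 20 bases of an annotated start. Rps6 and the paralogs Rps27l and Rpl39l are shown too. Each stretch holds 30 bases before the annotated start and 20 from it on, 5′ to 3′. Capitals mark the longest run lying within 20 bases of the start, and a longer run farther away stays in lower case. For Rpl4, Rps27l and Rpl39l the capitals end before the annotated start, so by this annotation they lie outside the message.
Rpl7a: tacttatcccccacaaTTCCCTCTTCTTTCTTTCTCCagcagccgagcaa
Rpl27a: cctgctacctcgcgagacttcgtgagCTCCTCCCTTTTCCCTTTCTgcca
Rpl35: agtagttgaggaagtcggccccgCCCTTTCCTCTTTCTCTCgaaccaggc
Rpl13a: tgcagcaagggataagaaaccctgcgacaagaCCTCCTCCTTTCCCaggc
Rpl14: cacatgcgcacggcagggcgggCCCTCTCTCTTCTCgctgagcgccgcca
Rpl4: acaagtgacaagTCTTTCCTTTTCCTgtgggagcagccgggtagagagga
Rpl39l: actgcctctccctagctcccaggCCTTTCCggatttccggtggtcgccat
Rps27l: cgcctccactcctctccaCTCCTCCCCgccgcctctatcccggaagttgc
Rps6: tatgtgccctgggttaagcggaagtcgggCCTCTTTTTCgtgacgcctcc
The Rpl7a stretch lies at chr2:26910777-26910826 on the plus strand. The Rpl27a stretch lies at chr7:109519165-109519214 on the plus strand. The Rpl35 stretch lies at chr2:39005112-39005161 on the minus strand. The Rpl13a stretch lies at chr7:45128726-45128775 on the minus strand. The Rpl14 stretch lies at chr9:120571487-120571536 on the plus strand. The Rpl4 stretch lies at chr9:64173357-64173406 on the plus strand. The Rpl39l stretch lies at chr16:10170198-10170247 on the plus strand. The Rps27l stretch lies at chr9:66946056-66946105 on the plus strand. The Rps6 stretch lies at chr4:86857348-86857397 on the minus strand. Sequences and positions are RefSeq's, build GRCm38.p6, and a gene with several annotated starts is shown at the one with the longest run. RefSeq promoters of 300 bases were matched for 38 of the 44 members, as 45 starts. A run of at least 8 pyrimidines within 20 bases on either side of the start was present at 19 of these 45 starts (42.2%), against 16.1% of all 32851 starts. Other short motifs were counted on both strands of the 300 bases. The Ets-type letters CCGGAAG stood in 44.4% of member promoters and 8.86% of all promoters. The Sp1-type letters GGGCGG stood in 51.1% against 35.7%, the YY1-type letters AAGATGG in 13.3% against 6.34%, and the TATA letters TATAAA in 11.1% against 13.6%. The HIF core letters ACGTG, which also lie inside the E-box CACGTG, stood in 26.7% against 19.6%, and CACGTG itself in 11.1% against 7.15%. The letters CTCTTTC stood in 15.6% against 8.16%. Such matches describe the letters and do not show binding.

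The signals of the members fell into 2 separate ranges. For 34 bright members the probe set means lay between 21060 and 40119, and for 10 dim members between 418 and 2742, with no member in between. Signals of different probe sets depend on their probes and were not set against each other as gene levels. The 5 brightest probe sets belonged to Rpl38, Rps29, Rpl41, Rplp2 and Rpl13a, and the 5 dimmest to Rpl39, Rps27, Rpl12, Rpl39l and Rpl27a. Of the 10 dim members, 8 also had bright probe sets listed under several symbols, whose best means lay between 21400 and 36720.

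**Figure D1:**
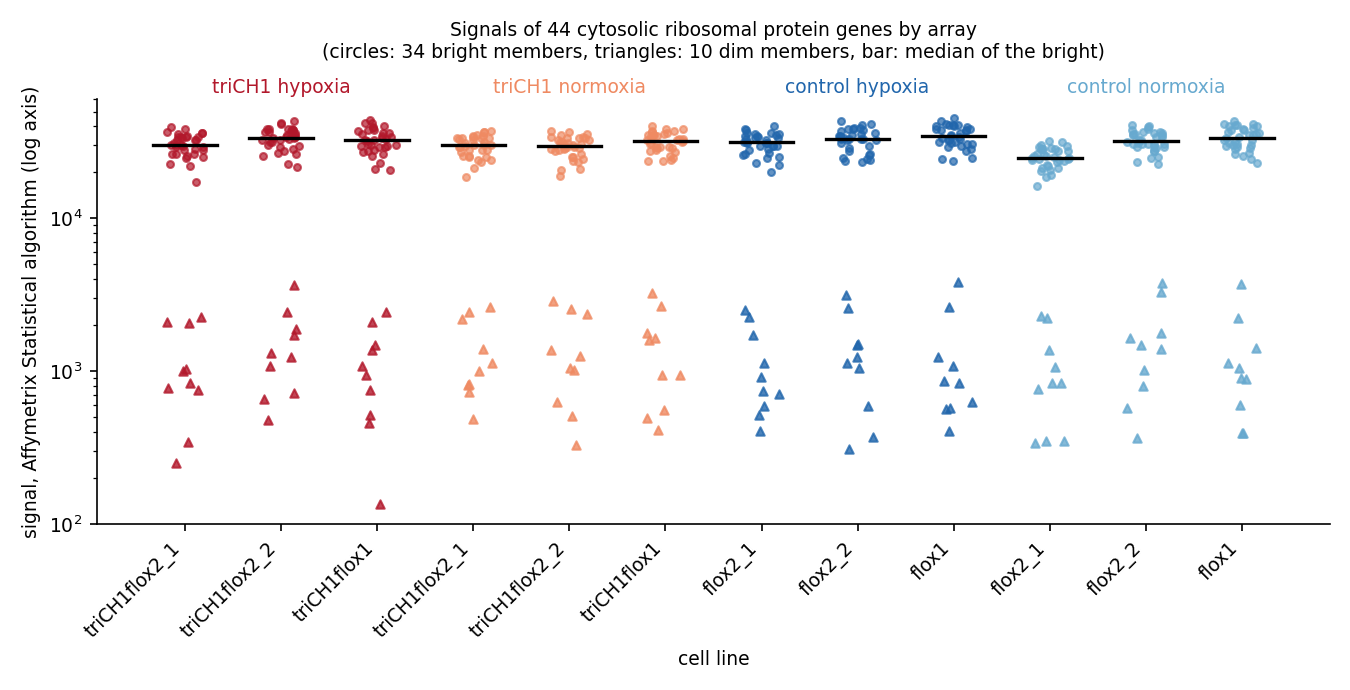
Signal of each of the 44 members on each of the 12 arrays, on a log axis, by group and line. Circles are the 34 bright members, triangles the 10 dim members and bars the median of the bright members. The bright members form a narrow band on every array, which sits lowest on the flox2_1 normoxia array.

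Across the 12 arrays the bright members moved little. Rplp0, which encodes the base of the stalk that recruits elongation factors, had signals of 34116, 38150 and 37978 in triCH1 hypoxia and 33390, 32546 and 34767 in triCH1 normoxia. For Rplp0 in the control lines the values were 36366, 38881 and 40192 in hypoxia and 28357, 36564 and 40531 in normoxia. The groups overlapped, and the lowest value was that of flox2_1 in normoxia. Rps14, a small subunit protein of the platform region, had 30007, 31741 and 36027 in triCH1 hypoxia, against 30166, 30162 and 28878 in triCH1 normoxia. Rps14 had 29886, 34906 and 34493 in control hypoxia, against 25081, 30551 and 33861 in control normoxia. The flox2_1 normoxia array was again the lowest of the 12. Rpl38, which in mice is needed for translation of certain Hox messages, ranged from 37102 to 43397 over the 6 triCH1 arrays and from 31596 to 45430 over the 6 control arrays. The highest signal of a bright member was 1.29 to 1.54 times its lowest (median 1.39). For the dim members this ratio was 1.39 to 4.96 (median 2.14).

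The further bright members given here overlapped between groups too, but their direction by line was not the same. Rplp2, Rps24 and Rps4x are among the 7 members that were higher in hypoxia in all 6 lines. Rplp2, a flexible protein of the stalk, had 36057, 37525 and 41982 in triCH1 hypoxia, against 34359, 35077 and 38386 in triCH1 normoxia. The control lines gave Rplp2 signals of 35558, 39231 and 40660 in hypoxia, against 28336, 37657 and 39910 in normoxia. Each line was higher in hypoxia, and the groups overlapped. Rps24 had 29104, 34224 and 29957 in triCH1 hypoxia and 28014, 27841 and 29338 in triCH1 normoxia. Rps24 had 29523, 32832 and 31232 in control hypoxia and 24020, 30524 and 30206 in control normoxia. It too was higher in hypoxia in each line, with overlapping groups. Rps4x had 29963, 33481 and 32063 in triCH1 hypoxia and 28165, 31277 and 29371 in triCH1 normoxia. Rps4x had 29815, 33340 and 32732 in control hypoxia and 24074, 30533 and 31623 in control normoxia. All 6 lines again showed the higher value in hypoxia. Rpl11 had 22646, 25416 and 20925 in triCH1 hypoxia and 23199, 20654 and 23685 in triCH1 normoxia. Rpl11 had 22368, 23939 and 24925 in control hypoxia and 18573, 23518 and 25681 in control normoxia. For Rpl11 the direction differed between lines. Rps3 ranged from 24371 to 27348 over the 6 triCH1 arrays and from 21312 to 29221 over the 6 control arrays. Rpsa ranged from 32573 to 36220 over the triCH1 arrays and from 25648 to 38504 over the control arrays. For Rps3 and Rpsa both extremes of the 12 arrays were control arrays, the lowest again flox2_1 in normoxia and the highest flox1 in hypoxia.

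One array set the lowest value of most members. All 34 bright members, and 35 of the 44, had their lowest signal on the array of flox2_1 in normoxia. On it the bright members lay 0.32 log2 units below their 12-array means (median), with a range of −0.41 to −0.24. The other 625 tested probe sets that averaged 10000 or more and list no ribosomal protein symbol were low on that array too, by a median of −0.21, while the median over all 18903 tested probe sets was 0.04. The authors' scale factor, by which every signal of an array was multiplied, was 2.57 on that array and 3.35 to 4.28 on the other 11. Divided by its scale factor, the median of the bright members was 9700 on that array, the highest of the 12, against 7784 to 9559 on the others. The order of the arrays by these values thus differs before and after scaling, and the part of the scaling in the low values was not tested.

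**Figure D2:**
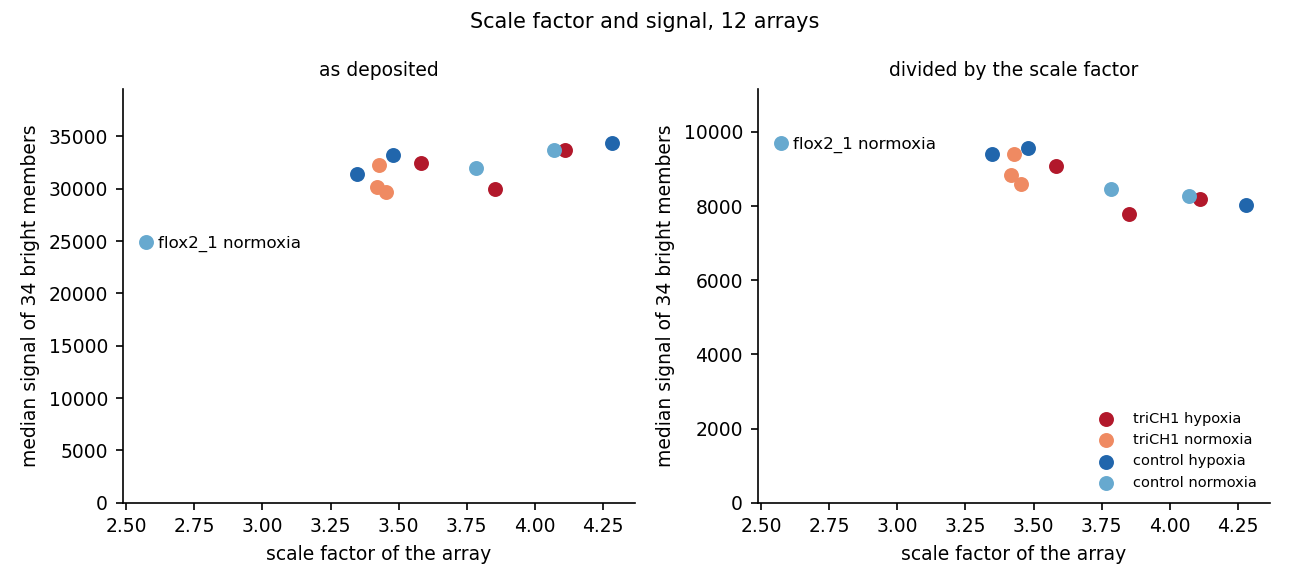
Median signal of the 34 bright members against the authors' scale factor for the 12 arrays, as deposited at the left and divided by the scale factor at the right, with both vertical axes from 0. The flox2_1 normoxia array has the lowest deposited median (24950) and the highest unscaled one (9700).

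The first comparison asked whether 0.1% O2 changed the messages of the ribosomal proteins. No member changed by the test used (limma on log2 of signal plus 20, Benjamini-Hochberg adjusted p under 0.05 over all 18903 tested probe sets). In the triCH1 lines 0 of 44 members were called, where 0.635% of all probe sets were. There 1 of 44 members had an unadjusted p under 0.05, against 6.25% of all tested probe sets. In the control lines 0 of 44 were called, against a background of 0.831%, and 0 had an unadjusted p under 0.05, against 5.98%. For the mean response over both line types 0 of 44 were called, against 1.75%, and the smallest adjusted p of a member was 0.55. With backgrounds this low, 44 genes without a call do not set the family apart from other genes.

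In the triCH1 lines 35 of 44 members had a positive hypoxia response, with a median of 0.06 log2 units, against a median of −0.02 over all tested probe sets. In the control lines 39 of 44 were positive, with a median of 0.11, against −0.04. Over both line types 36 of 44 were positive, with a median of 0.09, against −0.03. The 34 bright members alone had medians of 0.08 in triCH1 lines, 0.12 in control lines and 0.10 over both. The 625 other bright probe sets had medians of 0.05 in triCH1 lines, 0.09 in control lines and 0.07 over both. With quantile normalization, which removes such brightness-dependent shifts between arrays, the members' medians were −0.04 in triCH1 lines, 0.00 in control lines and −0.02 over both, and 10, 21 and 12 of 44 were positive. The sign of the members' median response thus depended on the normalization. Quantile normalization gives every array the same distribution of signals, so it would also remove a true change shared by the brightest probe sets.

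The hypoxia response of the members differed from line to line. The responses of the bright members spanned −0.27 to 0.32 in triCH1flox1 and −0.18 to 0.19 in flox2_2, a wide range that held both signs. In flox2_1 they spanned 0.25 to 0.42, and in triCH1flox2_2 0.05 to 0.30, all of them positive. The median response of the 44 members was 0.03 in triCH1flox2_1, 0.18 in triCH1flox2_2 and 0.00 in triCH1flox1. In the control lines it was 0.29 in flox2_1, −0.01 in flox2_2 and 0.04 in flox1. The number of members higher in hypoxia was 26, 41 and 22 in these triCH1 lines and 42, 21 and 31 in these control lines. The 2 lines with the larger values, flox2_1 and triCH1flox2_2, were also those in which the other bright probe sets were higher, with medians of 0.23 and 0.15 against 0.01 to 0.03 in the other 4 lines. Without the flox2_1 normoxia array 15 of 44 members were positive in the control lines in place of 39. Without both flox2_1 arrays 25 of 44 were. In the triCH1 lines 29 of 44 were positive without the triCH1flox2_2 normoxia array, in place of 35. Without both triCH1flox2_2 arrays 23 of 44 were.

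**Figure D3:**
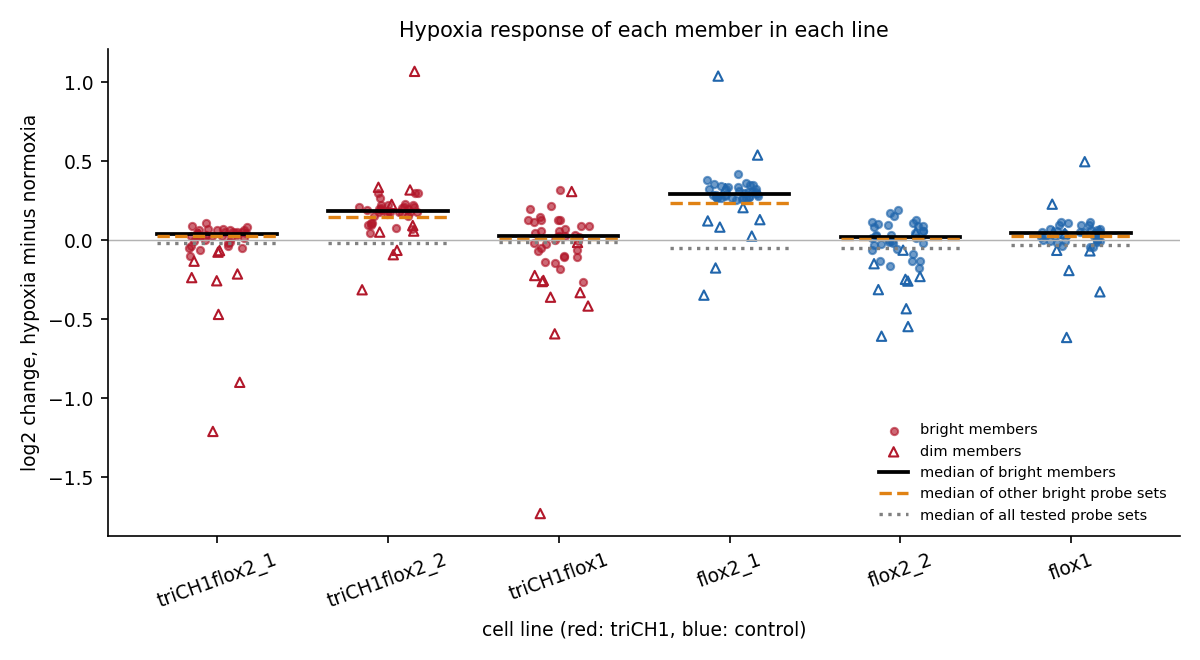
Hypoxia response (log2 signal in hypoxia minus normoxia) of the 34 bright members (circles) and 10 dim members (triangles) in each line, triCH1 lines in red and control lines in blue. Solid bars are medians of the bright members, dashed bars medians of 625 other bright probe sets and dotted bars medians of all 18903 tested probe sets. All bright members are above 0 in flox2_1 and triCH1flox2_2 and spread over both signs in the other 4 lines. The medians of the bright members and of the other bright probe sets lie close together in each line.

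The 95% intervals of the bright members for the mean hypoxia response lay within −0.22 and 0.32 log2 units, that is between 0.857-fold and 1.25-fold. All 34 held 0, but the fit leaves out the pairing by line, so they measure the spread between lines within a group. In the triCH1 lines alone the intervals lay within −0.40 and 0.41, and in the control lines within −0.25 and 0.45. The 5 highest mean responses belonged to Rps14 (0.14 ± 0.08, SE), Rps24, Rplp0, Rps4x and Rpl19 (0.13 ± 0.09), and none had an adjusted p below 0.551. Rps24 is one of the genes mutated in Diamond-Blackfan anaemia, Rps4x is the X-linked gene of a small subunit protein, and Rpl19 is a large subunit protein near the exit tunnel. Responses higher than 0 in all 6 lines were seen in 7 members, Rpl38, Rplp2, Rps2, Rpl35, Rps4x, Rps24 and Rps26. That is 15.9% of the members, against 5.14% of all tested probe sets. All 7 were bright, which is 20.6% of the bright members, against 16.2% of the other bright probe sets. No member was lower in all 6 lines, against 7.23% of all tested probe sets.

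**Figure D4:**
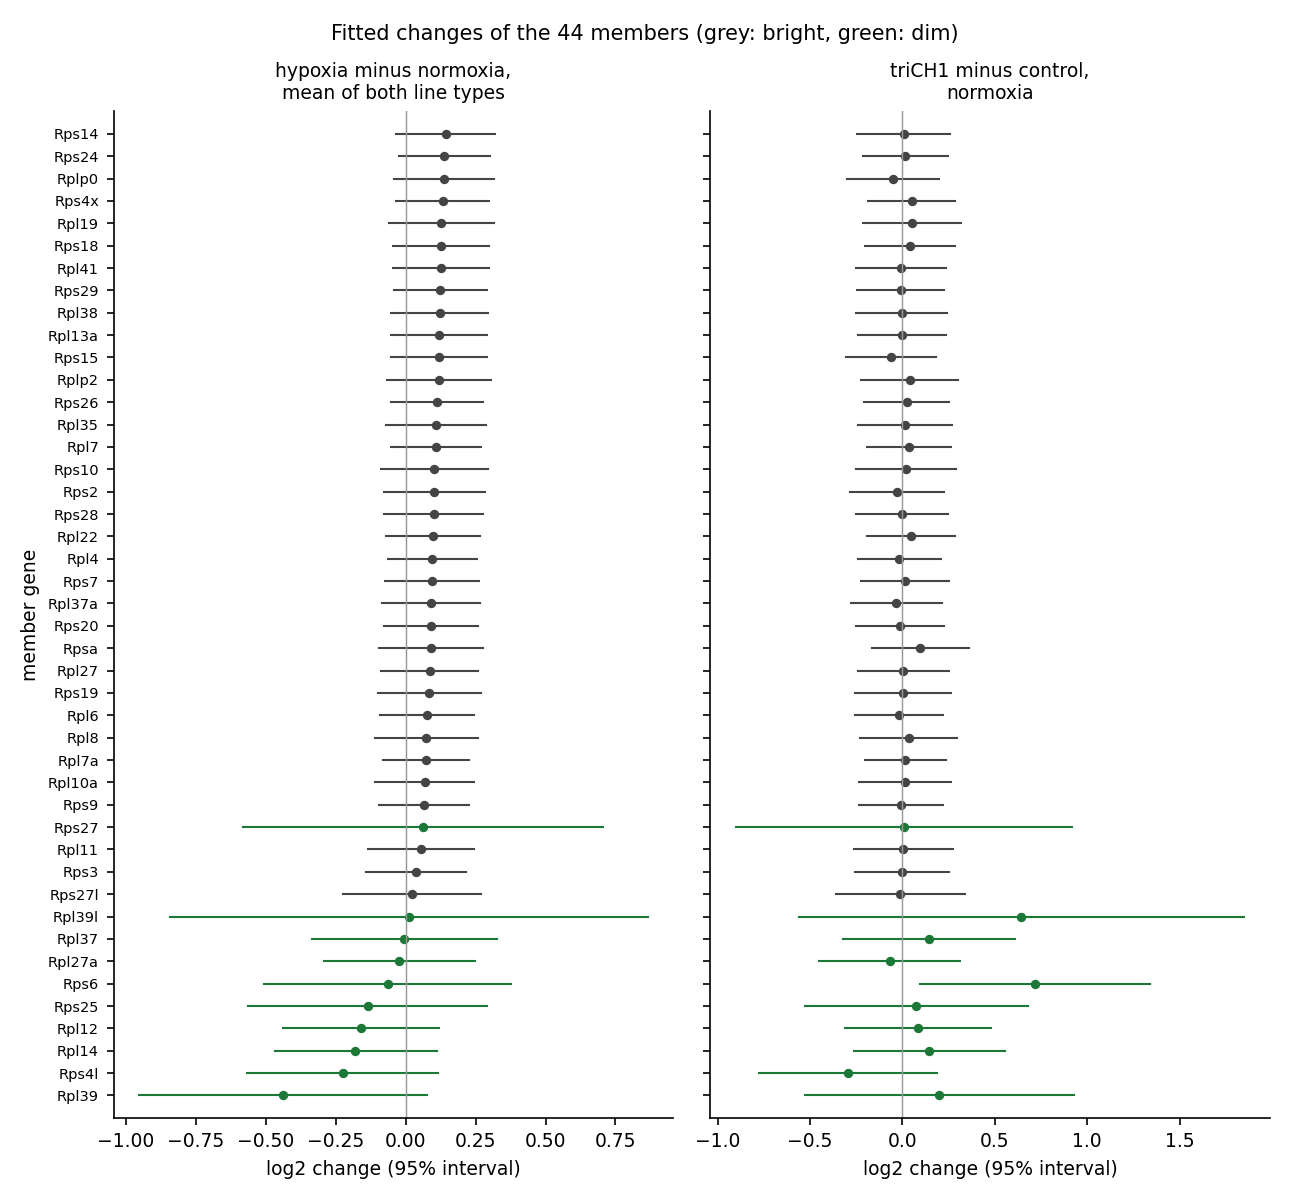
Fitted log2 change with its 95% interval for each of the 44 members, hypoxia minus normoxia over both line types at the left and triCH1 minus control in normoxia at the right, in grey for bright and green for dim members. The bright members lie within a narrow range of 0, and the dim members have wider intervals.

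Within the bright members the responses were set against the median of the 34 on the same pair of arrays, which removes a shift that all of them share. Relative to that median the mean over the 6 lines lay between −0.08 (Rps27l) and 0.04 (Rps14), and 32 of 34 were within 0.05. Rps24 was above the median in 6 of 6 lines, by 0.04 on average, the only 1 of the 34. The excess was 0.111 in triCH1flox2_2 and 0.084 in flox2_2, but only 0.0008 to 0.0039 in triCH1flox1, flox2_1 and flox1. Rps3, which lines the entry of the mRNA channel and also has a role in DNA repair, had −0.06 and lay below it in 4 of 6 lines. Rpl11, which with the 5S RNA and Rpl5 binds the p53 inhibitor Mdm2, had −0.05 and lay below it in 4 of 6. Rps9 lay below in 5 of 6 lines, by 0.04 on average, as did Rpl6 and Rpl27, each by 0.02. Rpl41, Rpl19, Rps4x and Rps26 lay above the median in 5 of 6. No member lay below it in all 6.

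By role, the members shared the same small values. Of the P stalk and its base, 3 of 4 listed genes were measured and 0 were called in any of the 6 comparisons. Rplp0 and Rplp2 had mean responses of 0.14 ± 0.08 and 0.12 ± 0.09, and Rpl12, the dim neighbour of the stalk base, −0.16 ± 0.13. Of the proteins around the peptide exit tunnel, 5 of 9 were measured, 4 were positive and the median was 0.10. Rpl4, Rpl19, Rpl22 and Rpl35 were bright, and Rpl39 was dim. Of the proteins of the mRNA channel and decoding centre, 4 of 6 listed symbols were measured, Rps2, Rps3, Rps15 and Fau, all positive, with a median of 0.11. The 4 small subunit proteins that are ubiquitylated on stalled ribosomes, Rps2, Rps3, Rps10 and Rps20, had a median of 0.10. Of the genes mutated in Diamond-Blackfan anaemia 6 of 10 were measured, all positive, with a median of 0.10. Of the ribosomal proteins that bind Mdm2 6 of 9 were measured, all positive, with a median of 0.06. In these lists 0 members were called. For the same mean response all 34 bright members and 78.1% of the other bright probe sets were positive, so the signs do not set a role apart. Under quantile normalization 12 of 44 members were positive. Rpsa, the small subunit protein once described as a laminin receptor precursor, had 0.09 ± 0.09, and Rpl13a, which in human cells can leave the ribosome to silence inflammatory messages, had 0.12 ± 0.08.

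The second comparison asked whether the triCH1 lines differed from the control lines. In hypoxia 0 of 44 members were called, against a background of 0.0741%. An unadjusted p under 0.05 was reached by 1 member, against 7.97% of all tested probe sets. In normoxia 0 of 44 were called, against 0.00529%, also with 1 at an unadjusted p under 0.05, against 7.56%. The difference in hypoxia response, triCH1 minus control, gave 0 of 44 calls, against 0.0%. For it 0 members had an unadjusted p under 0.05, against 0.693%. In hypoxia 10 of 44 members were higher in the triCH1 lines (median −0.02, against 0.03 over all tested probe sets), and in normoxia 27 of 44 (median 0.01, against 0.02). Of the 625 other bright probe sets 30.6% were higher in the triCH1 lines in hypoxia (median −0.06) and 45.6% in normoxia (median −0.01). Over all tested probe sets these shares were 55.5% and 52.6%. The 95% intervals of the bright members lay within −0.52 and 0.29 in hypoxia and within −0.36 and 0.36 in normoxia. For the difference in response they lay within −0.65 and 0.44. The difference in response was negative in 38 of 44 members (median −0.04), positive in 27.7% of the other bright probe sets (median −0.04) and in 51.6% of all tested ones. Without the flox2_1 normoxia array it was positive in 40 of 44, and in normoxia 6 of 44 members were then higher in the triCH1 lines in place of 27. Without the triCH1flox1 normoxia array that count in normoxia was 13. In hypoxia the count of 10 became 26 without the triCH1flox2_1 array, 21 without the flox1 array, 6 without the flox2_1 array and 21 under quantile normalization. With 1 array or line left out, the difference in response was positive in 3 to 40 of 44 members. The signs of these comparisons thus rest on single arrays.

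Outside the bright range a few members varied by line. Rps6, the small subunit protein phosphorylated by the S6 kinases downstream of mTOR, gave the highest value of triCH1 against control in normoxia. Its dim probe set had 2197, 2544 and 1765 in triCH1 normoxia and 1367, 1768 and 900 in control normoxia. In hypoxia it had 2085, 2434 and 1477 in the triCH1 lines and 1719, 1487 and 859 in the control lines. The line triCH1flox1 lay just below the highest control line in normoxia and below both flox2_1 and flox2_2 in hypoxia, so that the groups overlapped. The difference was 0.72 ± 0.29 in normoxia (unadjusted p = 0.0273, adjusted p = 0.591, limma) and 0.58 ± 0.29 in hypoxia (adjusted p = 0.642), and the hypoxia response itself was −0.06 ± 0.21. The 4 bright probe sets that list Rps6 together with other symbols had −0.03 to 0.02 for the same difference in normoxia. The Rps6 gene lies on chromosome 4 (86854099 to 86857367, minus strand, GRCm38.p6).

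Rpl39 is a small protein of the peptide exit tunnel whose gene is on the X chromosome (37082518 to 37085222). It had the lowest hypoxia response in the triCH1 lines. Its dim probe set had 251, 479 and 135 in triCH1 hypoxia, against 485, 512 and 494 in triCH1 normoxia. Control lines had 407, 370 and 563 in hypoxia, against 350, 575 and 393 in normoxia. The 3 triCH1 lines were lower in hypoxia, and of the control lines only flox2_2 was. The response was −0.91 ± 0.34 in the triCH1 lines (adjusted p = 0.615, limma) and 0.03 ± 0.34 in the control lines, and their difference was −0.94 ± 0.48 (adjusted p = 1). Without the triCH1flox1 hypoxia array it was −0.49 in the triCH1 lines. A bright probe set that lists Rpl39 together with another symbol had 0.10 in the triCH1 lines.

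**Figure D5:**
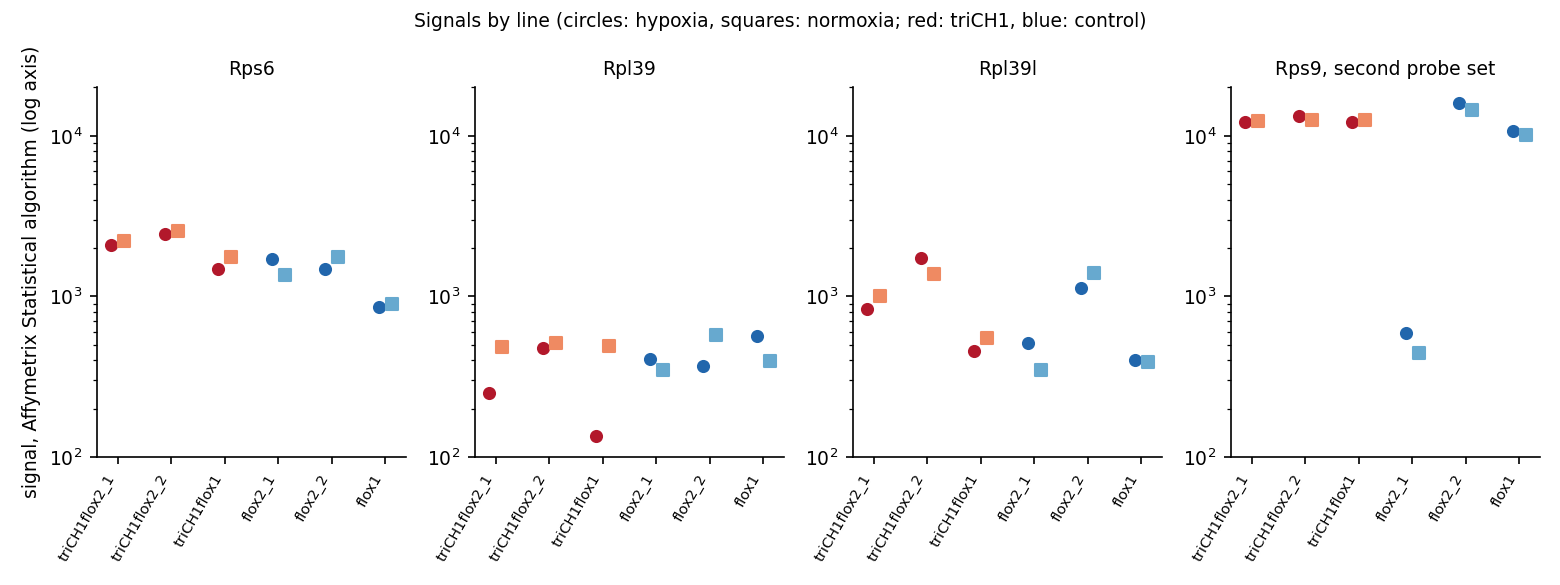
Signals of the dim probe sets of Rps6, Rpl39 and Rpl39l and of a second probe set of Rps9 in the 6 lines, on a log axis, with circles for hypoxia and squares for normoxia, triCH1 lines in red and control lines in blue. Rpl39l differs between lines more than between treatments, and the second Rps9 probe set is low in line flox2_1 only.

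The dim members leaned downward in hypoxia, unlike the bright ones. Of the 10 dim members only 2 had a positive mean hypoxia response (median −0.10), while all 34 bright members did. Still, no dim member had the same direction in all 6 lines. Rpl39l, a paralog of Rpl39 best known from the testis, had the largest spread over the 6 line means of any member, with an SD of 0.82 log2 units. It had 839, 1723 and 458 in triCH1 hypoxia and 1006, 1378 and 553 in triCH1 normoxia. Control lines had 514, 1126 and 404 in hypoxia and 347, 1403 and 392 in normoxia. The lines whose names end in flox2_2 were the highest of each type in both treatments, and its mean hypoxia response was 0.01 ± 0.40. Rps6 followed with an SD of 0.51, then Rps25, whose protein is needed for some internal ribosome entry sites, with 0.36, Rps27 with 0.34 and Rpl39 with 0.33. Over the bright members the SD was 0.07 to 0.18 (median 0.11). Rps27 responded by −1.21, 1.07 and 0.31 in the triCH1 lines triCH1flox2_1, triCH1flox2_2 and triCH1flox1 and by 1.04, −0.23 and −0.62 in flox2_1, flox2_2 and flox1, opposite in direction within each line type. The 5 lowest mean responses were all those of dim members: Rpl39 (−0.44 ± 0.24), Rps4l (−0.22 ± 0.16), Rpl14 (−0.18 ± 0.14), Rpl12 and Rps25 (−0.14 ± 0.20), with adjusted p between 0.55 and 0.876. In normoxia the lowest values of triCH1 against control were those of Rps4l (−0.30 ± 0.22), Rpl27a, Rps15, Rplp0 (−0.05 ± 0.12) and Rpl37a, and the highest those of Rps6, Rpl39l (0.64 ± 0.56), Rpl39, Rpl14 and Rpl37 (0.14).

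The paralogs did not follow one pattern. Rps27l, a paralog of Rps27 that p53 induces, was bright and had 17383, 21763 and 20646 in triCH1 hypoxia and 18604, 19031 and 24824 in triCH1 normoxia. It had 20033, 23232 and 23840 in control hypoxia and 16167, 22738 and 24456 in control normoxia. The groups overlapped, and its mean response was 0.02 ± 0.11 (adjusted p = 0.973). Rps4l, the transcribed pseudogene, has a dim probe set and had a lower signal in hypoxia in all 3 triCH1 lines (adjusted p = 0.936, limma). In the control lines Rps4l changed by −0.55 in flox2_2, 0.03 in flox2_1 and 0.06 in flox1. The related gene Rps4x, with a bright probe set, was higher in hypoxia in all 6 lines. Rpl22l1 and Rpl7l1, whose symbols the rule does not take, had mean responses of 0.17 ± 0.08 and −0.25 ± 0.10 with adjusted p of 0.423 and 0.342. Fau, which encodes a small subunit protein fused to a ubiquitin-like one, and Rps3a1 are ribosomal protein genes outside the rule and had 0.11 ± 0.09 and 0.10 ± 0.07.

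Further probe sets of ribosomal protein genes gave no call either, and bright and dim ones differed in sign. The 34 other bright probe sets of members had a median mean response of 0.10, and 31 were positive. The 78 bright probe sets listed under several symbols had 0.11, and 77 were positive. Of the 8 other dim probe sets of members, from Rpl37a, Rps3, Rpl22, Rps24, Rpl41, Rps9 and Rps20, 2 were positive, with a median of −0.14, although the probe sets that stand for these genes here were all positive. Of the 98 tested probe sets of that kind, and of the other tested probe sets of members, 0 were called in any of the 6 comparisons. A second probe set stood apart in 1 line, that of Rps9, a small subunit protein known from yeast for its part in decoding accuracy. It had 594.5 in hypoxia and 444.9 in normoxia in line flox2_1, against 10090 to 15950 on the other 10 arrays. Even the lowest of those was 17.0 times the higher of the flox2_1 values. The brighter Rps9 probe set, which stands for the gene here, had 22980 and 19184 in flox2_1 and 21043 to 24817 elsewhere. Of all 18903 tested probe sets, 4 had both flox2_1 arrays at least 8-fold below each of the others, and the other lines had 0 to 2 such probe sets. The cause was not tested.

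Lists of genes that serve the ribosome were measured beside the members. Over all 18903 tested probe sets 269 were called higher and 62 lower in the mean hypoxia response, and 44.2% were positive, with a median of −0.03. Of 46 ribosome biogenesis factors, 42 had a negative mean hypoxia response (median −0.19), and 3 were called lower in it: Rcl1 and Rrp9, which act in processing of the small subunit's RNA, and Nol9, a polynucleotide kinase of ribosomal RNA processing. Rcl1 had −0.81 ± 0.12 (adjusted p = 1.79e-03, limma) and was lower in hypoxia in 6 of 6 lines. That call was lost under 1 of 27 alternatives. In the control lines Rcl1 was called lower too, with −0.87 ± 0.17 (adjusted p = 0.0257), a call lost under 11 of 28 alternatives. Rrp9 had −0.61 ± 0.12 (adjusted p = 0.0193) and Nol9 −0.59 ± 0.13 (adjusted p = 0.0336), each lower in 6 of 6 lines, but Rrp9 lost its call under 10 of 27 alternatives and Nol9 under 19. Of 12 genes of the RNA polymerase I machinery, 10 were negative (median −0.25), and Polr1b, its second largest subunit, was called lower. Polr1b had signals of 632, 611 and 631 in triCH1 hypoxia, against 976, 918 and 853 in triCH1 normoxia. Control lines had 343, 390 and 393 in hypoxia, against 689, 786 and 733 in normoxia, without overlap between treatments of a line type. Its mean response fell by 0.74 ± 0.11 on the log2 scale (adjusted p = 1.36e-03, limma). Polr1b kept its call under all 27 alternatives. Of 76 mitochondrial ribosomal protein genes, 69 were negative, with a median of −0.13, and 0 were called. By line the median of these 76 was 0.03 in triCH1flox2_2 and 0.03 in flox2_1, and −0.30 to −0.05 in the other 4 lines. Under quantile normalization the medians of the biogenesis and mitochondrial lists were −0.20 and −0.12, of the same sign as without it, while the sign of the members' median turned. The biogenesis list had a negative median in each of the 6 lines, from −0.285 to −0.12. The median over all tested probe sets was negative in each line too, from −0.05 to −0.01. Only 2 of the 46 biogenesis factors and 0 of the 76 mitochondrial genes were as bright as 10000.

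Among other messages of the translation machinery, only the elongation factors and other TOP messages had a median near that of the members. Of 17 measured, 14 were positive in the mean response, with a median of 0.08 (0.00 under quantile normalization), and 0 were called. Of these 17, 12 were bright, and 78.1% of the 625 other bright probe sets were positive (median 0.07). The signs thus do not set these messages apart. The initiation factors and mTOR genes lay near the median over all tested probe sets (−0.03). Of 22 initiation factors 10 were positive (median −0.02) and 1 was called lower, Eif2b4, a subunit of the eIF2B exchange factor, with −0.47 ± 0.10 (adjusted p = 0.0339), a call that was lost under 20 of 27 alternatives. Of 17 genes of mTOR signalling 8 were positive, with a median of −0.05, and 2 were called higher. Ddit4, the hypoxia-induced mTOR inhibitor REDD1, had signals of 1941, 2687 and 3788 in triCH1 hypoxia, against 839, 1269 and 1956 in triCH1 normoxia. It had 4473, 4622 and 4370 in control hypoxia, against 1522, 2047 and 1884 in control normoxia, and its mean response was 1.19 ± 0.20 (adjusted p = 3.96e-03). Eif4ebp1, a translation repressor that mTOR inactivates, rose by 0.52 ± 0.10 (adjusted p = 0.0156), a call that was lost under 9 of 27 alternatives.

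The arrays themselves were compared once. Median signals lay between 57.2 and 76.1, the 3′ to 5′ ratio of the Gapdh control probe sets between 0.737 and 0.812, and pairwise correlations of log2 signals between 0.93 and 0.976, with 0 identical pairs. All 10 fibroblast markers had a mean of at least 100, from 44240 for Vim down to 228.8 for Dcn and 218.3 for Pdgfra. Dcn and Pdgfra fell to 12.1 and 14.7 on their lowest arrays. None of 4 endothelial markers reached a mean of 100, and of 5 macrophage markers 3 did, the highest at 194.3. Of the epithelial markers 2 of 4 did, of the muscle markers 1 of 4 and of the neural markers 2 of 3, none above 314.5, and the single erythroid marker did not. Signals of a bulk culture cannot tell fewer cells of a type from less message per cell. The Crebbp probe set gave line means of 755.2 and 790.5 where Crebbp was floxed (2 lines) and of 1045 to 1804 in the other 4. The Ep300 probe set gave 237.2 to 423.6 where Ep300 was floxed (4 lines), against 499.2 and 655.1 in the others. These probe sets do not test the CH1 deletion.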

How the data were processed

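RNA from 12 cultures was hybridised to 1 array each. Per the labels, the deposited intensities (linear probe set signals) come from the Statistical algorithm of Affymetrix's software, which brings each array to a target of 500. The mean of each array without its lowest and highest 2% was 500 when checked. The software version is not given in the sources used here, and no detection calls were used.

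Arrays were grouped by the line and treatment in their titles. Genes came from GEO's platform annotation, and probe sets with several symbols were not named. log2(signal + 20) was fitted for the 18903 probe sets that averaged 100 or more, with a mean for each group, with limma 3.58.1 (lmFit, eBayes with trend, R 4.3.3). The 6 contrasts were tested two-sided with Benjamini-Hochberg adjustment over all tested probe sets. Errors are SE for log2 changes, and 95% intervals use limma's moderated degrees of freedom, taken from its p-values. The fit was tested on simulated data.

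Hypoxia and normoxia arrays of a line share its cells, so the line pairs them. Correlations of their deviations from group means ran from −0.02 to 0.58 over the 6 lines. Whether embryos shared litters is not stated. The main fit leaves the pairing out. Its p-values and intervals thus measure the spread between lines within a group, not that of the response of a line. With the line as a block 455 of 18903 probe sets were called higher and 238 lower in the mean hypoxia response. Without it 269 and 62 were, and neither fit called a member. With 3 arrays a group, precision is limited by their number.

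Named genes were the 5 highest and 5 lowest members by mean response, by triCH1 against control in normoxia and by signal, the 5 with the largest SD over lines, paralogs with their parents, stalk genes, Rps6, Rps3, Rpsa, Rpl11, Rpl13a, ribosomal genes outside the rule and called genes of the lists. Rplp1, Rpl5, Rps27a, Rack1, Rpl10l and Rpl36al were not analysed here. Other genes named were chosen after their values were seen. The members and all lists were chosen with earlier results of these data known. Alternatives tried were quantile normalization, median centring, pseudocounts of 1 or 100, a filter at 200 or none, no trend, lines as blocks, the arrays of a contrast alone, other probe set choices, Ep300-floxed lines alone and omission of each array or line. Bright members alone were added after the data were seen. Promoters came from RefSeq (GRCm38.p6). Figures and summaries were made with Python 3.11.15.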

Additional observations from a re-analysis of the deposited data

How the results depend on the processing

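Over 33 alternatives, 383 of 384 counts of called members stayed at 0. The exception was 1 member called higher in triCH1 against control in normoxia, Rps6, when lines were paired by their matched names as a replicate block (0.72, adjusted p = 0.0453, limma); the labels do not say that such names mark a shared litter, and the adjusted p was 0.227 to 1 under all other alternatives. With the line as a replicate block, the pairing that the design gives, the median changes of members were 0.06 in triCH1 lines, 0.11 in control lines and 0.09 over both, with 0 calls. With quantile normalization the median hypoxia response of members in triCH1 lines was −0.04, in place of 0.06. When 1 array or line was left out, the median ranged from 0.01 to 0.11 for the response in triCH1 lines, from −0.01 to 0.20 in control lines, from 0.02 to 0.13 over both and from −0.12 to 0.09 for the difference in response. It ranged from −0.07 to 0.02 for triCH1 against control in hypoxia and from −0.13 to 0.09 in normoxia. The response of Rpl39 in triCH1 lines ranged from −1.34 to −0.49. The cause of these shifts was not tested. Having 1 array per line and treatment, and several-symbol probe sets that were not named, limits what can be said of single members. Whether the brightest signals were saturated was not tested.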
